A study of Mus musculus with 9 samples.

Results

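The 10 genes described here encode enzymes of glycolysis from hexokinase to lactate dehydrogenase, namely Hk1, Hk2, Gpi1, Pfkl, Pfkm, Pfkp, Aldoa, Pgk1, Pkm and Ldha. They were taken by symbol from a table of 24421 genes, and 10 of 10 were among the 15583 genes that passed the filter on low counts. The table holds RNA sequencing of proximal tubular cells sorted by flow cytometry from 9 mice, 3 in each of 3 groups. Control *db/m* mice are heterozygous for a mutation of the leptin receptor gene and are not diabetic. The *db/db* mice are homozygous for it, become obese and hyperglycemic, and drank vehicle for 8 weeks, and *db/db*-dapa mice of the same genotype received dapagliflozin in their drinking water at 1.5 mg/kg/day for 8 weeks. These groups are also called control, untreated diabetic and treated mice in what follows, and whether control mice drank vehicle is not given in the sources used here. All 9 mice were of the C57BL/6 strain, carried a tamoxifen-inducible Cre in the SLC34a1 locus (SLC34a1GCE) and the R26tdTomato reporter, and were injected with tamoxifen at 8 weeks of age. The sorted cells were therefore those in which the Slc34a1 promoter, which is active in the proximal tubule, had driven Cre, although the labels name only kidney as the tissue and kidneys as the source of the RNA, and the sorting is described in the study's methods alone. Each library came from 1 mouse.

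Glycolysis splits glucose into pyruvate in the cytosol and yields ATP without oxygen, and lactate dehydrogenase converts pyruvate to lactate and back. Many of its steps are served by isoenzymes encoded by separate genes and expressed in different tissues. The proximal tubule reabsorbs filtered glucose, largely through SGLT2, the target of dapagliflozin, but is known to burn mainly fatty acids and other non-glucose fuels, to make glucose from lactate, and to leave glycolysis mostly to the distal nephron. Transcription of many glycolytic genes is raised by hypoxia-inducible factors (HIFs), which bind DNA at the hypoxia response element.

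The libraries held 4817670 to 6571539 counts in control, 2733314 to 7635630 in untreated diabetic and 6981183 to 9033062 in treated mice. Expression is given in CPM, the counts of a gene per 1000000 counts of the scaled library. The 10 markers of the proximal tubule were detected in all mice, and their sum was 11508 to 12145 CPM in *db/m*, 12574 to 19019 in *db/db* and 14741 to 18938 in *db/db*-dapa mice. The 7 markers of the collecting duct (among them Aqp2, its vasopressin-regulated water channel) were also detected in all mice, with sums of 261, 417 and 836 CPM in *db/m* mice 2, 1 and 3. In *db/db* mice 3, 2 and 1 these sums were 268, 316 and 542 CPM, and in *db/db*-dapa mice 2, 3 and 1 they were 160, 217 and 285 CPM. RNA of this segment was highest in *db/m* mouse 3 and *db/db* mouse 1, and lowest in *db/db*-dapa mice 2 and 3. Of these 7 markers 0 were called in any comparison, but between treated and control mice 6 were lower at an unadjusted p under 0.05. Of all genes tested, 18.2% were under that limit in this comparison, in either direction. In RNA from sorted cells, fewer cells of a type and less RNA per cell cannot be told apart.

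None of the 10 genes passed the threshold in any comparison, although their levels were measured closely enough in most of them to limit the size of a difference. Fold changes come from the quasi-likelihood test of edgeR, fitted to all 15583 genes at once, with p adjusted by Benjamini and Hochberg's method. A gene was called when its adjusted p was under 0.1 and its log2 fold change was over 1 in either direction. Between *db/db* and *db/m* mice, 0 of 10 were called, against 1.24% of all genes, and 0 had an adjusted p under 0.1, against 1.67%. Between treated and untreated diabetic mice, 0 of 10 were called and 0 passed on adjusted p alone, and the background was 0% and 0% of all genes. Without *db/db* mouse 3 the latter comparison called 272 genes, with 0 of the 10 among them. Between treated and control mice, the same counts were 0 and 0, against 1.05% and 1.31% of all genes. The lowest adjusted p of the 10 was 0.318 in the first comparison, 0.854 in the second and 0.247 in the third, and DESeq2 and limma called 0 of 10 as well.

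At an unadjusted p under 0.05, 1 of the 10 (Ldha, lower) stood out in *db/db* against *db/m* mice, where 13.7% of all genes did. The count was 0 in treated against untreated diabetic mice, where 5.19% did, and 2 (Hk1 and Aldoa, both lower) in treated against control mice, where 18.2% did. Complete separation of the groups' values was seen for 2 of the 10 in the first comparison (Pgk1 and Ldha, lower, against 16.4% of all genes), for the same 2 in the second (higher, against 10.2%) and for 0 in the third (against 28.1%). The median log2 fold change of the 10 was -0.13, -0.18 and -0.32 in the 3 comparisons in this order, whereas over all genes tested it was 0.020, -0.0094 and -0.022. By sign alone, 3 were higher and 7 lower in each of the first 2 comparisons, and 1 was higher and 9 lower in the third. The comparisons share groups, so these counts are not independent of each other.

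**Figure D1:**
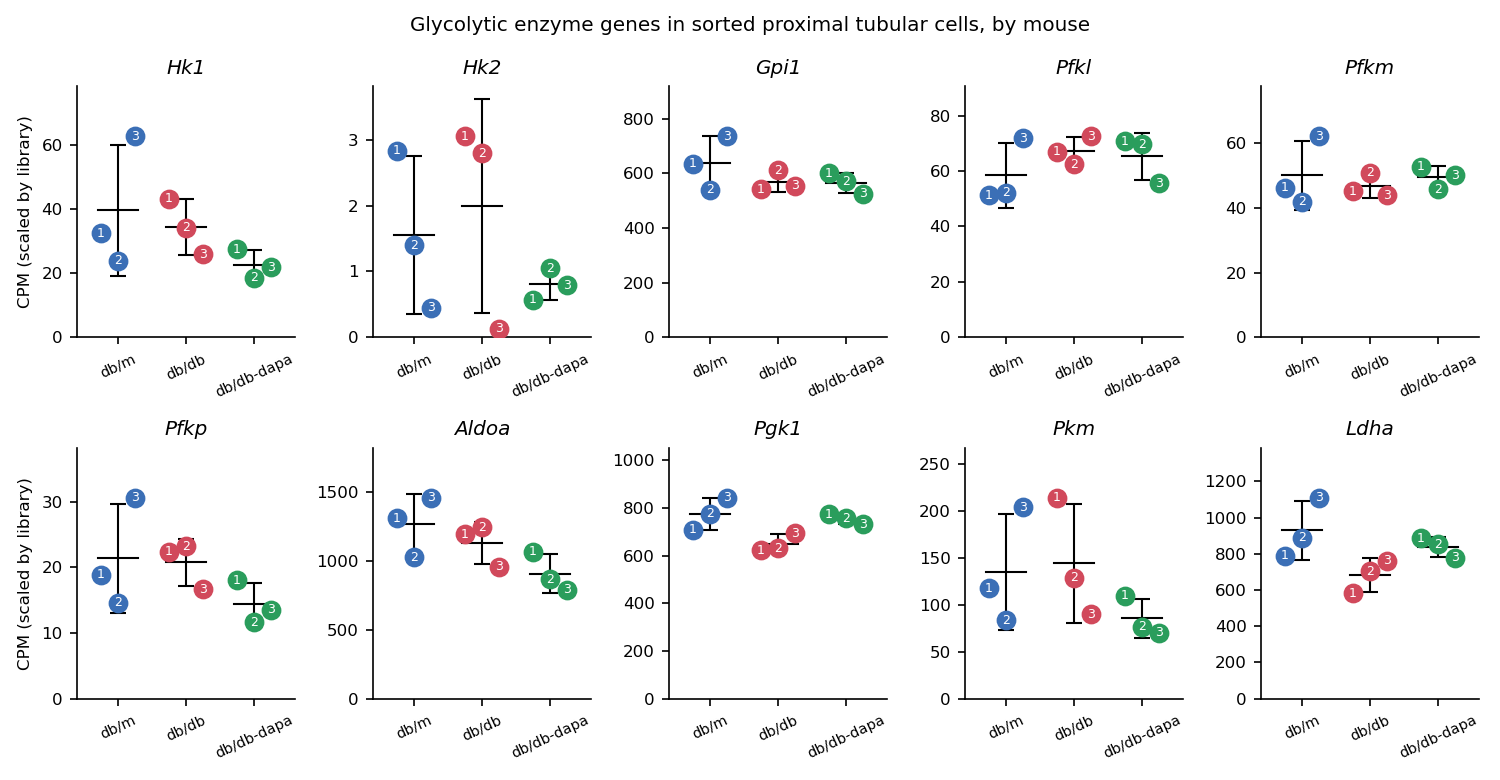
Level of each of the 10 glycolytic genes in CPM, with 1 point per mouse numbered by replicate, a horizontal line at the mean of the 3 mice and bars of 1 SD. Pgk1 and Ldha of *db/db* mice lie below those of the other groups, and *db/m* mouse 3 is the highest of its group for every gene except Hk2.

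Read per kilobase of the longest transcript, the genes of aldolase, lactate dehydrogenase, phosphoglycerate kinase and glucose-6-phosphate isomerase were far more abundant than those of hexokinase and phosphofructokinase. Aldoa was highest, with a median over the 9 mice of 689 CPM per kb (range 512 to 943). Ldha followed at 435 (321 to 611) and Pgk1 at 401 (341 to 462), and these neighbours were close, with Ldha above Pgk1 in 8 of 9 mice. Gpi1 came next at 198 (182 to 255) and Pkm at 45.1 (29.0 to 88.2). Pfkl at 18.0 (13.8 to 19.5) and Pfkm at 16.1 (14.5 to 21.6) could not be ordered, since Pfkl was the higher in 4 of 9 mice. Hk1 at 6.40 (4.33 to 14.6), Pfkp at 4.35 (2.82 to 7.39) and Hk2 at 0.191 (0.0229 to 0.555) were the lowest. Every other neighbour in this order held its place in 9 of 9 mice, although each isoform of a gene was assumed to have the length of its longest transcript.

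Hexokinases trap glucose in the cell as glucose 6-phosphate. Hk1, the widely expressed form, maps to chromosome 10 (62268855 to 62379908, build GRCm38, that is, mm10). In *db/m* mice 1, 2 and 3 it was at 32.4, 23.7 and 62.6 CPM, in *db/db* mice at 43.2, 34.0 and 25.8 CPM and in *db/db*-dapa mice at 27.4, 18.5 and 21.8 CPM. The *db/db*-dapa mice were at the low end, but their values overlapped those of both other groups. The log2 fold change of *db/db* against *db/m* mice was -0.21 (standard error, SE, 0.33), that of treated against untreated diabetic mice -0.59 (SE 0.33, adjusted p = 0.854), and that of treated against control mice -0.80 (SE 0.33, adjusted p = 0.247). Without *db/m* mouse 3 the first of these was 0.26 and the third -0.32.

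Hk2, the form induced by insulin and hypoxia in other tissues, lies on chromosome 6 from 82725025 to 82774454 and was almost absent. It had 18, 8 and 2 counts in *db/m* mice, 9, 14 and 1 in *db/db* mice and 4, 8 and 7 in *db/db*-dapa mice, or 0.13 to 3.06 CPM. Counts this low gave a 95% interval of the log2 fold change from -3.18 to 0.82 between treated and untreated diabetic mice, so that a difference was not detectable at this depth. Hk1 exceeded Hk2 per kb in 9 of 9 mice, by 14.8-fold or more.

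Gpi1, which isomerizes glucose 6-phosphate to fructose 6-phosphate, lies on chromosome 7 from 34201330 to 34230336. It was at 635, 540 and 736 CPM in *db/m*, 542, 612 and 554 CPM in *db/db* and 600, 572 and 526 CPM in *db/db*-dapa mice. The groups overlapped, and the treated and untreated diabetic mice were nearly level, with a log2 fold change of -0.0098 (95% interval -0.38 to 0.36).

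Phosphofructokinase commits hexose to glycolysis and is built from liver-type (Pfkl), muscle-type (Pfkm) and platelet-type (Pfkp) subunits. Pfkl (chromosome 10, 77986947 to 78010083) was at 51.3, 52.2 and 71.9 CPM in *db/m*, 67.0, 62.4 and 72.6 CPM in *db/db* and 70.8, 69.7 and 55.5 CPM in *db/db*-dapa mice. Pfkm (chromosome 15, 98092589 to 98132451) was at 46.3, 41.9 and 62.2 CPM, 45.2, 50.8 and 44.0 CPM, and 52.7, 45.7 and 50.1 CPM in the same order. Both groups of diabetic mice overlapped for each of these genes, with log2 fold changes of treated against untreated diabetic mice of -0.04 (95% interval -0.45 to 0.36) and 0.085 (-0.31 to 0.48). Pfkp (chromosome 13, 6579768 to 6648777) was at 18.9, 14.7 and 30.6 CPM in *db/m*, 22.4, 23.2 and 16.7 CPM in *db/db* and 18.0, 11.7 and 13.6 CPM in *db/db*-dapa mice. It was lowest in *db/db*-dapa mice 2 and 3, at -0.52 on the log2 scale against *db/db* mice (SE 0.29, adjusted p = 0.854) and -0.56 against *db/m* mice (SE 0.29, adjusted p = 0.311). Without *db/m* mouse 3 the latter was -0.23.

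Aldolase splits fructose 1,6-bisphosphate, and aldolase A is the form of muscle and most tissues. Aldoa lies on chromosome 7, where GENCODE has 2 gene models of this name, from 126795234 to 126800751 and from 126800790 to 126809108. It was at 1310, 1028 and 1460 CPM in *db/m*, 1194, 1245 and 959 CPM in *db/db* and 1067, 868 and 792 CPM in *db/db*-dapa mice. The mean of the *db/db*-dapa mice was the lowest, but mouse 1 of this group was above the lowest mouse of each other group. On the log2 scale it differed by -0.32 (SE 0.20, adjusted p = 0.854) against *db/db* mice and -0.48 (SE 0.20, adjusted p = 0.253) against *db/m* mice.

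Pyruvate kinase makes pyruvate and ATP in the last step, and Pkm encodes its M1 and M2 forms, which gene counts do not separate. It lies on chromosome 9 from 59656368 to 59679375. Pkm was at 118, 83.6 and 204 CPM in *db/m*, 214, 129 and 89.9 CPM in *db/db* and 110, 76.5 and 70.6 CPM in *db/db*-dapa mice. Both *db/db* mouse 1 and *db/m* mouse 3 were above the rest. The log2 fold change of treated against untreated diabetic mice was -0.75 (SE 0.36, adjusted p = 0.854). Without *db/db* mouse 1 it was -0.35, and with variance weights for each mouse (limma) it was -0.97 with an adjusted p of 0.0921.

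**Figure D2:**
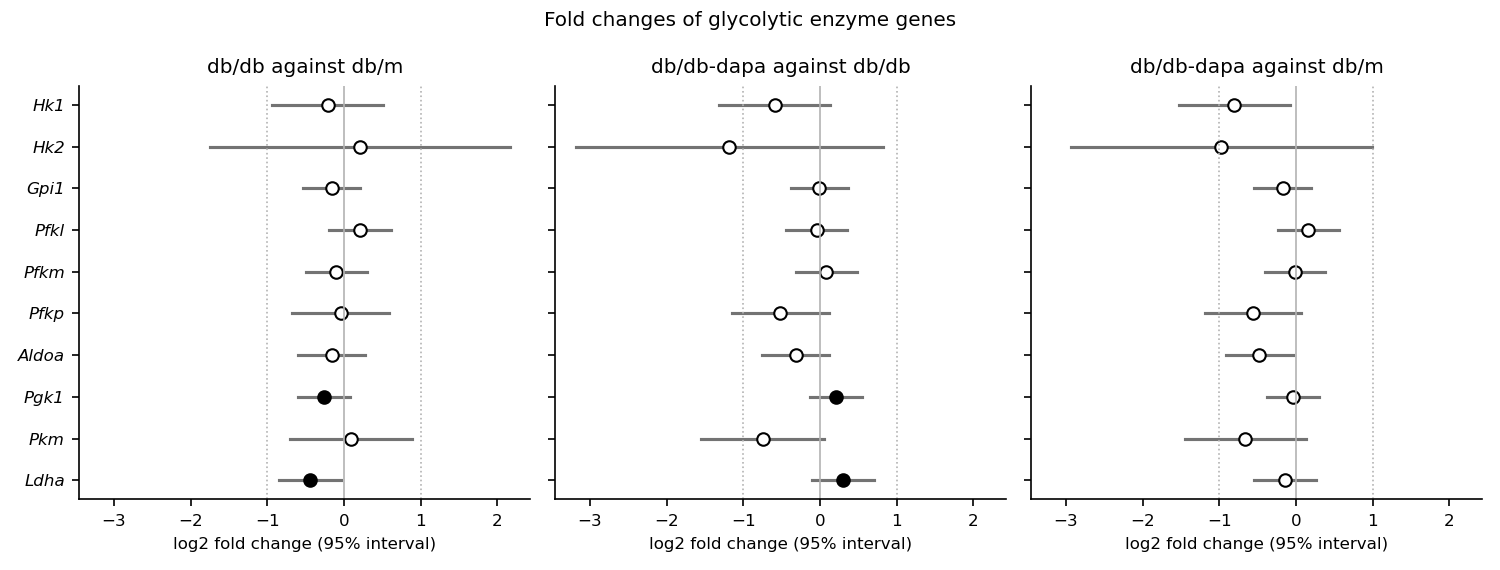
Log2 fold change of each gene in the 3 comparisons, with the 95% interval from edgeR's quasi-likelihood fit as a bar and dotted lines at 1 and -1. Filled points mark genes whose values did not overlap between the groups, which were Pgk1 and Ldha in the first 2 comparisons, and open points mark the others.

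The intervals of Gpi1, Pfkl, Pfkm, Aldoa, Pgk1 and Ldha lay between -0.92 and 0.70 in all 3 comparisons, so that a change of these genes past 1 on the log2 scale was outside the 95% interval in each. Those of Hk1, Hk2, Pfkp and Pkm reached beyond -1 in at least 1 comparison.

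Phosphoglycerate kinase (Pgk1, chromosome X, 106187100 to 106203699) yields the first ATP of the pathway. It was at 709, 776 and 843 CPM in *db/m*, 623, 631 and 695 CPM in *db/db* and 774, 756 and 731 CPM in *db/db*-dapa mice. Every *db/db* mouse was below every mouse of the other groups, but by little. Its log2 fold change was -0.26 (SE 0.15, adjusted p = 0.50) for *db/db* against *db/m* mice, 0.21 (SE 0.15, adjusted p = 0.854) for treated against untreated diabetic mice and -0.042 (95% interval -0.38 to 0.30) for treated against control mice.

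Ldha (chromosome 7, 46841475 to 46855627) encodes the lactate dehydrogenase subunit that prevails in glycolytic tissue. It was at 789, 888 and 1110 CPM in *db/m*, 583, 704 and 761 CPM in *db/db* and 886, 852 and 778 CPM in *db/db*-dapa mice. Again every *db/db* mouse was below every other mouse. For Ldha the log2 fold change was -0.44 (SE 0.19, unadjusted p = 0.0349, adjusted p = 0.318) for *db/db* against *db/m* mice, 0.30 (SE 0.18, adjusted p = 0.854) for treated against untreated diabetic mice and -0.15 (SE 0.18, adjusted p = 0.678) for treated against control mice. Without *db/m* mouse 3 and *db/db* mouse 1, a choice made after the data were seen, the first was -0.19 and the second 0.19.

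The promoters of Ldha and Pgk1 are shown because these genes varied together, with those of Pdk1 and Egln3, which differed between diabetic and control mice. Each is the 250 bases before an annotated start in RefSeq (GRCm38.p6), written 5′ to 3′ on the strand of the gene. Capitals mark ACGTG or GCGTG on either strand, the core letters of the hypoxia response element.
Ldha, first of 2 annotated starts, chr7:46845554-46845803, plus strand: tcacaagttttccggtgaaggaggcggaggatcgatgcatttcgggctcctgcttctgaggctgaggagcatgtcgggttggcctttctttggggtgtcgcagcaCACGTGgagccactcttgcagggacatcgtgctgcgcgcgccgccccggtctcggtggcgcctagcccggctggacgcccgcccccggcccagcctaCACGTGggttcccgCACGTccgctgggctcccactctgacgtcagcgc
Pgk1, chrX:106186850-106187099, plus strand: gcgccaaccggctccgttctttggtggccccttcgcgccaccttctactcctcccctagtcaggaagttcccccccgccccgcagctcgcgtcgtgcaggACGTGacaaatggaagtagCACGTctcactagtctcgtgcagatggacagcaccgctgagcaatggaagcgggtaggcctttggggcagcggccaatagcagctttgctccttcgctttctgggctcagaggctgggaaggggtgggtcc
Pdk1, first of 2 annotated starts, chr2:71872974-71873223, plus strand: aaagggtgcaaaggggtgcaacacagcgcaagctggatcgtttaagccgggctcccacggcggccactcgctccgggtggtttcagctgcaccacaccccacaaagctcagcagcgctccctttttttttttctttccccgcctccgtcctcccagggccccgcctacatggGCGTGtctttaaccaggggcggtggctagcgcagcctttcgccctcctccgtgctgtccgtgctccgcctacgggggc
Egln3, chr12:54203875-54204124, minus strand: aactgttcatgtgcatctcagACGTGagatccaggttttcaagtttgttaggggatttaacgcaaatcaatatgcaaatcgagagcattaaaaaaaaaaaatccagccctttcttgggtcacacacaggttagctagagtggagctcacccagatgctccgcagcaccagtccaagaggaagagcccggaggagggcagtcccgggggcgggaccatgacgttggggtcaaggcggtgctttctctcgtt

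In the Ldha window ACGTG occurred 5 times, of which 4 were the 2 strands of 2 copies of the palindrome CACGTG, and in the Pgk1 window it occurred 2 times. The Pdk1 window shown held GCGTG once, the window before its second start held neither motif, and the Egln3 window held ACGTG once. Of the other genes that differed, Pdk3, which was lower in untreated diabetic mice, had 1 ACGTG and 3 GCGTG in its window, Ldhd, also lower in untreated diabetic mice, had 2 ACGTG, the 2 strands of 1 CACGTG, and neither window of Pklr held a match. Among the 10 genes, 13 of 18 windows, some of them overlapping, and at least 1 window of 9 genes held one of these motifs, with Gpi1 as the exception. For comparison, of 32851 windows of the same length before all annotated starts, 38.6% held ACGTG or GCGTG, 16.6% held ACGTG and 6.02% held CACGTG. These matches describe letters and not binding, which was not measured.

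Across the 9 mice, 4 of the 10 genes (Hk1, Pfkp, Aldoa and Pkm) varied with the collecting duct markers. Pearson's r was computed on log2(CPM + 1) for the 45 pairs of genes and for each gene with the summed collecting duct markers, 55 relations in all, with exact permutation tests adjusted over them. Values of r with the markers of other cell types were also computed but not tested. The adjusted p values do not cover the choice of the collecting duct list among them. Hk1 and Pfkp had r = 0.97 (exact permutation p = 1.65e-05, adjusted 0.000354) and Spearman's rho = 0.98 (exact permutation p = 4.96e-05, adjusted 0.000909). Without the 2 mice farthest from the median of Hk1, r was 0.975. Hk1 and Pkm had r = 0.94 (exact permutation p = 0.000127, adjusted 0.00174), rho = 0.97 (exact permutation p = 0.000165, adjusted 0.00227) and r = 0.93 without 2 mice. The 6 pairs among Hk1, Pfkp, Aldoa and Pkm had r between 0.84 and 0.97. The mice of all groups are pooled in these values.

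With the summed collecting duct markers, r for Hk1 was 0.98 (exact permutation p = 1.93e-05, adjusted 0.000354), rho was 0.98 (exact permutation p = 4.96e-05, adjusted 0.000909), and r was 0.93 without the 2 mice farthest from the median of the markers. For Pkm, r was 0.92 (exact permutation p = 0.000408, adjusted 0.00368), rho was 0.95 (exact permutation p = 0.000353, adjusted 0.00323), and r was 0.81 without 2 mice. Pfkp had r = 0.92, rho = 0.95 and r = 0.83 without 2 mice, with exact permutation p = 0.000468 (adjusted 0.00368) for r and 0.000353 (adjusted 0.00323) for rho. Aldoa had r = 0.87, rho = 0.92 and r = 0.87 without 2 mice, with exact permutation p = 0.0018 (adjusted 0.00991) for r and 0.00131 (adjusted 0.00802) for rho. Hk1 was also high where the markers of the distal convoluted tubule (r = 0.93) and of intercalated cells (r = 0.92) were, and Pkm ran with the former at r = 0.93. For Aldoa, r was 0.90 with the markers of intercalated cells, 0.89 with those of stroma, 0.82 with those of red cells and -0.83 with those of the proximal tubule. These values over the same 9 mice are a description. How much of each gene's RNA came from these cells was not tested.

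**Figure D3:**
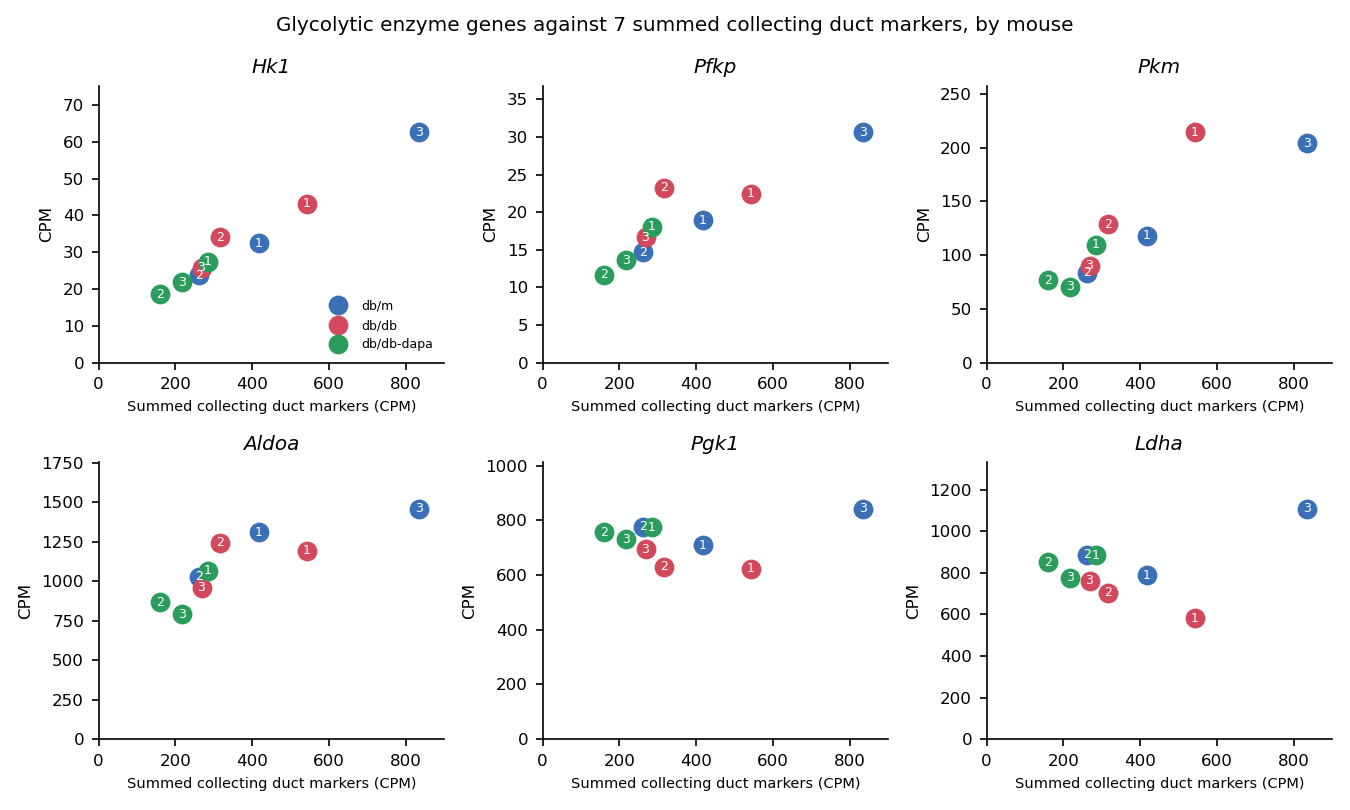
CPM of 6 glycolytic genes against the summed CPM of 7 collecting duct markers, with 1 point per mouse numbered by replicate and colored by group. Hk1, Pfkp and Aldoa were highest in *db/m* mouse 3 and Pkm in *db/db* mouse 1, the 2 mice with the highest markers, whereas Pgk1 and Ldha show no such slope.

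Pgk1 and Ldha had r = 0.95 with each other (exact permutation p = 8.27e-06, adjusted 0.000354), rho = 0.98 (exact permutation p = 4.96e-05, adjusted 0.000909) and r = 0.96 without the 2 mice farthest from the median of Pgk1. Within each group the 3 mice took the same order for both genes. With the collecting duct markers r was 0.037 for Pgk1 (exact permutation p = 0.928, rho = -0.15, exact permutation p = 0.708) and 0.12 for Ldha (exact permutation p = 0.756, rho = -0.067, exact permutation p = 0.880), with -0.41 and -0.32 without 2 mice. For Gpi1, r with the markers was 0.67 (exact permutation p = 0.0497, adjusted 0.171), rho was 0.62 (exact permutation p = 0.0857) and r was 0.65 without 2 mice. For the remaining genes too no relation to these markers passed the test. Pfkm had r = 0.54 (exact permutation p = 0.137), rho = 0.40 (exact permutation p = 0.291) and r = 0.12 without 2 mice, Hk2 had r = 0.17 (exact permutation p = 0.655), rho = 0.22 (exact permutation p = 0.581) and r = 0.48 without 2 mice, and Pfkl had r = 0.15 (exact permutation p = 0.702), rho = 0.12 (exact permutation p = 0.776) and r = -0.40 without 2 mice. With markers of other cell types, which were not tested, r was 0.80 for Gpi1 and intercalated cells. For Hk2, at few counts, it was 0.81 with leukocytes.

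Without *db/m* mouse 3 and *db/db* mouse 1, the 2 mice with the highest collecting duct markers, 0 of 10 genes passed in any comparison. The log2 fold change of treated against control mice then moved from -0.80 to -0.32 for Hk1, from -0.56 to -0.22 for Pfkp, from -0.48 to -0.36 for Aldoa and from -0.66 to -0.24 for Pkm. Against *db/db* mice it moved from -0.59 to -0.40 for Hk1, from -0.75 to -0.35 for Pkm, and by less for Pfkp (-0.46) and Aldoa (-0.28). These mice were chosen after the data were seen. Since *db/m* mouse 3 was the highest control for Hk1, Pfkp, Aldoa and Pkm, its removal had to shrink their difference between treated and control mice. Without *db/m* mouse 3 alone these values were -0.32, -0.23, -0.37 and -0.24 in this order of genes. Likewise *db/db* mouse 1 was the highest of its group for Hk1 and Pkm. The part of collecting duct RNA in these moves was not tested.

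Among all other genes tested, those whose log2(CPM + 1) ran most closely with Hk1 over the 9 mice were Pygl (r = 0.99), the liver-type glycogen phosphorylase, and Pcyt2 (r = 0.99). Near to Pkm was Atg16l2 (r = 0.99), and near to Pgk1 was Dpagt1 (r = 0.96). For Pfkp these were Exosc4 (r = 0.97) and Cav2 (r = 0.97), for Aldoa Pdrg1 (r = 0.98) and Lims2 (r = 0.98), for Gpi1 Defb19 (r = 0.98) and Ovol3 (r = 0.97), for Pfkl Cad (r = 0.97) and Hoxb9 (r = 0.91), and for Pfkm 2810025M15Rik (r = 0.96) and Slc48a1 (r = 0.93). Those of Hk2, Gpr25 (r = 0.96) and Mx2 (r = 0.96), rest on few counts, and so does Defb19, at 2 to 17 counts a mouse. These are among the nearest of 15573 genes over only 9 mice and are given as a description.

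Isoenzymes of the same step were compared within each library as shares of the summed CPM per kb, which do not depend on the scaling between libraries. The mix of cells in a library can still move these shares. Lactate dehydrogenase was mostly Ldhb, the subunit of oxidative tissue, at 2.40 to 4.03 times the level of Ldha per kb in 9 of 9 mice. The shares of pyruvate kinase spread widely between mice. Pkm made up 83.5, 69.8 and 90.8% of pyruvate kinase in *db/m* mice, 81.3, 69.3 and 52.3% in *db/db* mice and 65.9, 48.7 and 49.4% in *db/db*-dapa mice. Every *db/db*-dapa mouse was below every *db/m* mouse, and the rest was Pklr, the form of liver and red cells.

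The mean share of Pkm was 81.4 ± 10.7% in control, 67.6 ± 14.6% in untreated and 54.6 ± 9.74% in treated mice (SD, n = 3 each). Between treated and control mice the difference was -26.8 percentage points (two-sided exact permutation p = 0.1, adjusted 0.429), and 0.1 is the smallest p that 3 against 3 mice can give. Between treated and untreated diabetic mice it was -13.0 points (two-sided exact permutation p = 0.2, adjusted 0.429). Pkm itself ran with the collecting duct markers (r = 0.92), and the part of the mix of cells in these differences was not tested. The share of Ldha in lactate dehydrogenase was 26.3 ± 1.61, 23.5 ± 5.01 and 29.2 ± 0.343% in the same order of groups (SD, n = 3 each), and that of Pfkp in phosphofructokinase was 13.2 ± 2.14, 12.7 ± 2.05 and 9.07 ± 1.46% (SD, n = 3 each). Of 45 comparisons of shares computed, not all of them given here, 9 reached p = 0.1 in the two-sided exact permutation test, and none passed after adjustment, which the design did not allow.

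**Figure D4:**
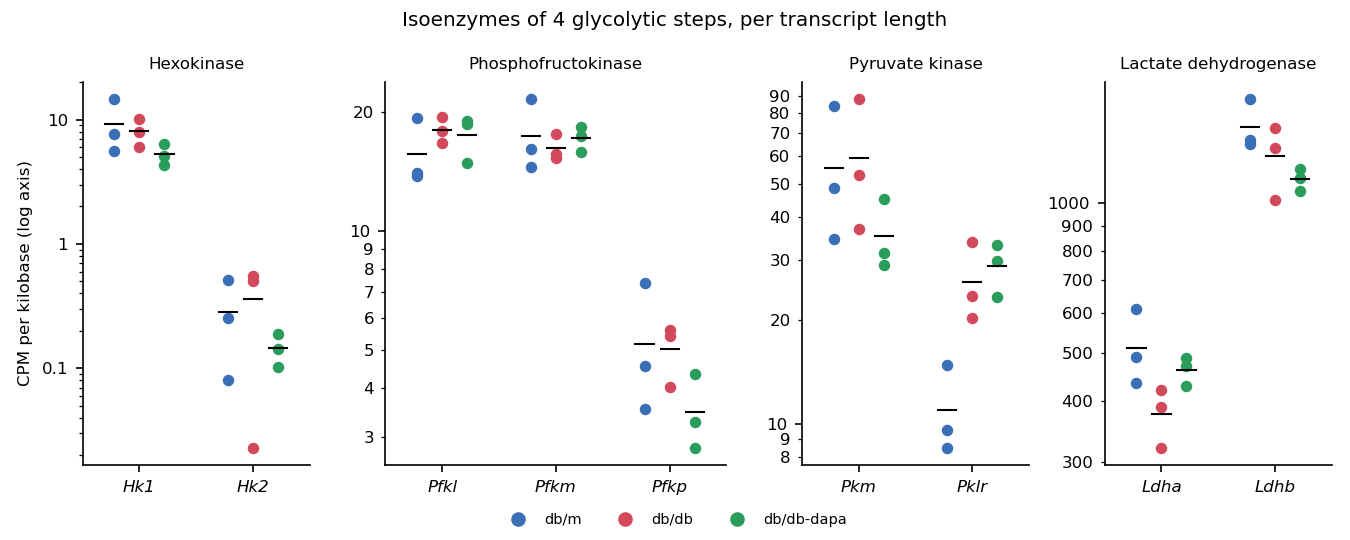
CPM per kilobase of the isoenzyme genes of 4 steps on log axes, with 1 point per mouse colored by group and a line at the mean of the 3 mice. Ldhb lies above Ldha in all mice, Hk2 is far below Hk1, and Pklr of *db/m* mice lies below that of both diabetic groups.

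Around these 10 genes, a few others of the pathway did differ between diabetic and control mice. The list of other glycolytic genes and isoenzymes has 22 members, of which 19 passed the filter. Between *db/db* and *db/m* mice 1 rose (Pklr) and 1 fell (Ldhd), and between treated and control mice 1 rose (Pklr) and 0 fell. Of all genes tested, 1.24% and 1.05% were called in these comparisons. Pklr (chromosome 3, 89136142 to 89146784) was at 27.7, 43.1 and 24.7 CPM in *db/m*, 58.8, 68.2 and 97.8 CPM in *db/db* and 67.9, 96.4 and 86.4 CPM in *db/db*-dapa mice. All diabetic mice were above all controls, by 1.24 on the log2 scale (SE 0.26, adjusted p = 0.0583) without and 1.39 (SE 0.26, adjusted p = 0.0511) with dapagliflozin. The summed proximal tubule markers given above also had higher means in both diabetic groups, and their part in this difference was not tested. Against *db/m* mice, 8 of these 10 markers were higher and 2 lower in *db/db* mice, and 10 were higher in *db/db*-dapa mice, with 0 called. The sums rest in part on Lrp2, which was at 2182, 1646 and 5281 CPM in *db/db* mice 1, 2 and 3. Between the diabetic groups the value for Pklr was 0.15 (SE 0.25, adjusted p = 0.919). The first call of Pklr was lost without *db/m* mouse 1 (adjusted p = 0.257), *db/m* mouse 3 (0.187) or *db/db* mouse 2 (0.111), and on fold alone (0.99) without *db/db* mouse 3, and the second without *db/m* mouse 1 (adjusted p = 0.235), *db/m* mouse 3 (0.212), *db/db*-dapa mouse 2 (0.277) or *db/db*-dapa mouse 3 (0.190). In a fit of only the 2 groups compared the first call was lost as well (adjusted p = 0.125), and without the 2 mice highest in collecting duct markers both were (0.139 and 0.139).

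Ldhd (chromosome 8, 111623785 to 111630374) encodes the mitochondrial enzyme that acts on D-lactate. It was at 872, 892 and 806 CPM in *db/m*, 255, 253 and 512 CPM in *db/db* and 472, 467 and 641 CPM in *db/db*-dapa mice. All diabetic mice were below all controls. The log2 fold change against *db/m* mice was -1.33 in *db/db* mice (SE 0.27, adjusted p = 0.0494) and -0.70 in *db/db*-dapa mice (SE 0.27, adjusted p = 0.228). The call was lost without *db/m* mouse 1 (adjusted p = 0.184), 2 (0.140) or 3 (0.119) and without *db/db* mouse 1 (0.118) or 2 (0.140). It was also lost in a fit of only the 2 groups compared (adjusted p = 0.118) and without the 2 mice highest in collecting duct markers (0.203). Between treated and untreated diabetic mice the log2 fold change was 0.63 (SE 0.27, adjusted p = 0.854), and without *db/db* mouse 3 it was 1.07 with an adjusted p of 0.0612. The other genes of this list did not pass. Eno1, an enolase whose reads may be shared with its near-identical copy Eno1b, was at 0.59 (SE 0.19, adjusted p = 0.184) in treated against control mice, and Bpgm, bisphosphoglycerate mutase, at 0.21 (SE 0.15, adjusted p = 0.854) in treated against untreated diabetic mice. The remaining extremes, Hk3, Hkdc1, Eno2 and Eno4, had at most 20 counts in a mouse, and no fold is given for them.

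Among the lists of the wider pathway, the lowest adjusted p belonged to genes that set the fate of pyruvate. Pyruvate dehydrogenase kinases switch off the entry of pyruvate into the citric acid cycle, and 4 genes encode them. Of the 19 genes of pyruvate use and lactate transport, 18 were tested, and 1 rose (Pdk1) and 1 fell (Pdk3) between *db/db* and *db/m* mice. In this comparison 1.24% of all genes were called. Pdk1 (chromosome 2, 71873224 to 71903858), a HIF target, was at 17.2, 16.2 and 24.7 CPM in *db/m*, 41.1, 48.4 and 55.1 CPM in *db/db* and 32.4, 38.7 and 36.0 CPM in *db/db*-dapa mice. The 3 groups did not overlap, and *db/db*-dapa mice lay between the others. The log2 fold change was 1.33 (SE 0.20, adjusted p = 0.0132) for *db/db* against *db/m* mice. For treated against control mice it was 0.89 (SE 0.20, adjusted p = 0.0905), below the limit on the fold. Without *db/m* mouse 3 the latter was past this limit, at 1.09 with an adjusted p of 0.0896. Its adjusted p was above 0.1 without *db/m* mouse 1 (0.309) or 2 (0.166) and without *db/db*-dapa mouse 2 (0.403) or 3 (0.278). For treated against untreated diabetic mice the log2 fold change of Pdk1 was -0.44 (SE 0.20, unadjusted p = 0.0459, adjusted p = 0.854).

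Pdk3 (chromosome X, 93764607 to 93832201) ran the opposite way, at 40.6, 46.8 and 43.5 CPM in *db/m*, 18.7, 18.2 and 21.6 CPM in *db/db* and 29.7, 29.9 and 28.7 CPM in *db/db*-dapa mice. Here too the groups were separate, with *db/db*-dapa mice in the middle. For Pdk3 the log2 fold change was -1.16 (SE 0.16, adjusted p = 0.00884) for *db/db* against *db/m* mice, -0.57 (SE 0.15, adjusted p = 0.131) for treated against control mice and 0.59 (SE 0.16, unadjusted p = 0.00316, adjusted p = 0.854) for treated against untreated diabetic mice. The calls of Pdk1 and Pdk3 between *db/db* and *db/m* mice were kept with each of the 6 mice left out in turn. Pdk4, the kinase induced by fasting and fatty acids, was at 13.1 to 23.0 CPM in *db/m*, 26.2 to 246 in *db/db* and 53.5 to 85.1 in *db/db*-dapa mice, with a single high value, in *db/db* mouse 2. Its log2 fold change of 2.57 between *db/db* and *db/m* mice (SE 0.67, adjusted p = 0.114) was not called, and without *db/db* mouse 2 it was 1.05 (adjusted p = 0.191). It passed with DESeq2 (adjusted p = 0.0382), with scaling by the library total (0.0890), with no filter (0.0601), with the replicate block (0.0946) and without *db/db* mouse 1 (0.0442) or 3 (0.0472). Slc16a1, the lactate and pyruvate carrier MCT1, was at 0.82 in treated against untreated diabetic mice (SE 0.28, adjusted p = 0.854) and 1.14 in treated against control mice (SE 0.29, adjusted p = 0.112). In the latter comparison it passed with DESeq2 (adjusted p = 0.0128), with no filter (0.0716), with only the 2 groups compared (0.0420) and with variance weights (0.00453), and with these weights it also passed in the former (1.05, adjusted p = 0.0854). Bsg, the chaperone of this carrier, was at -0.53 in treated against control mice (SE 0.23, adjusted p = 0.263), and Slc16a3, the carrier MCT4 of glycolytic cells, had 2 to 31 counts.

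**Figure D5:**
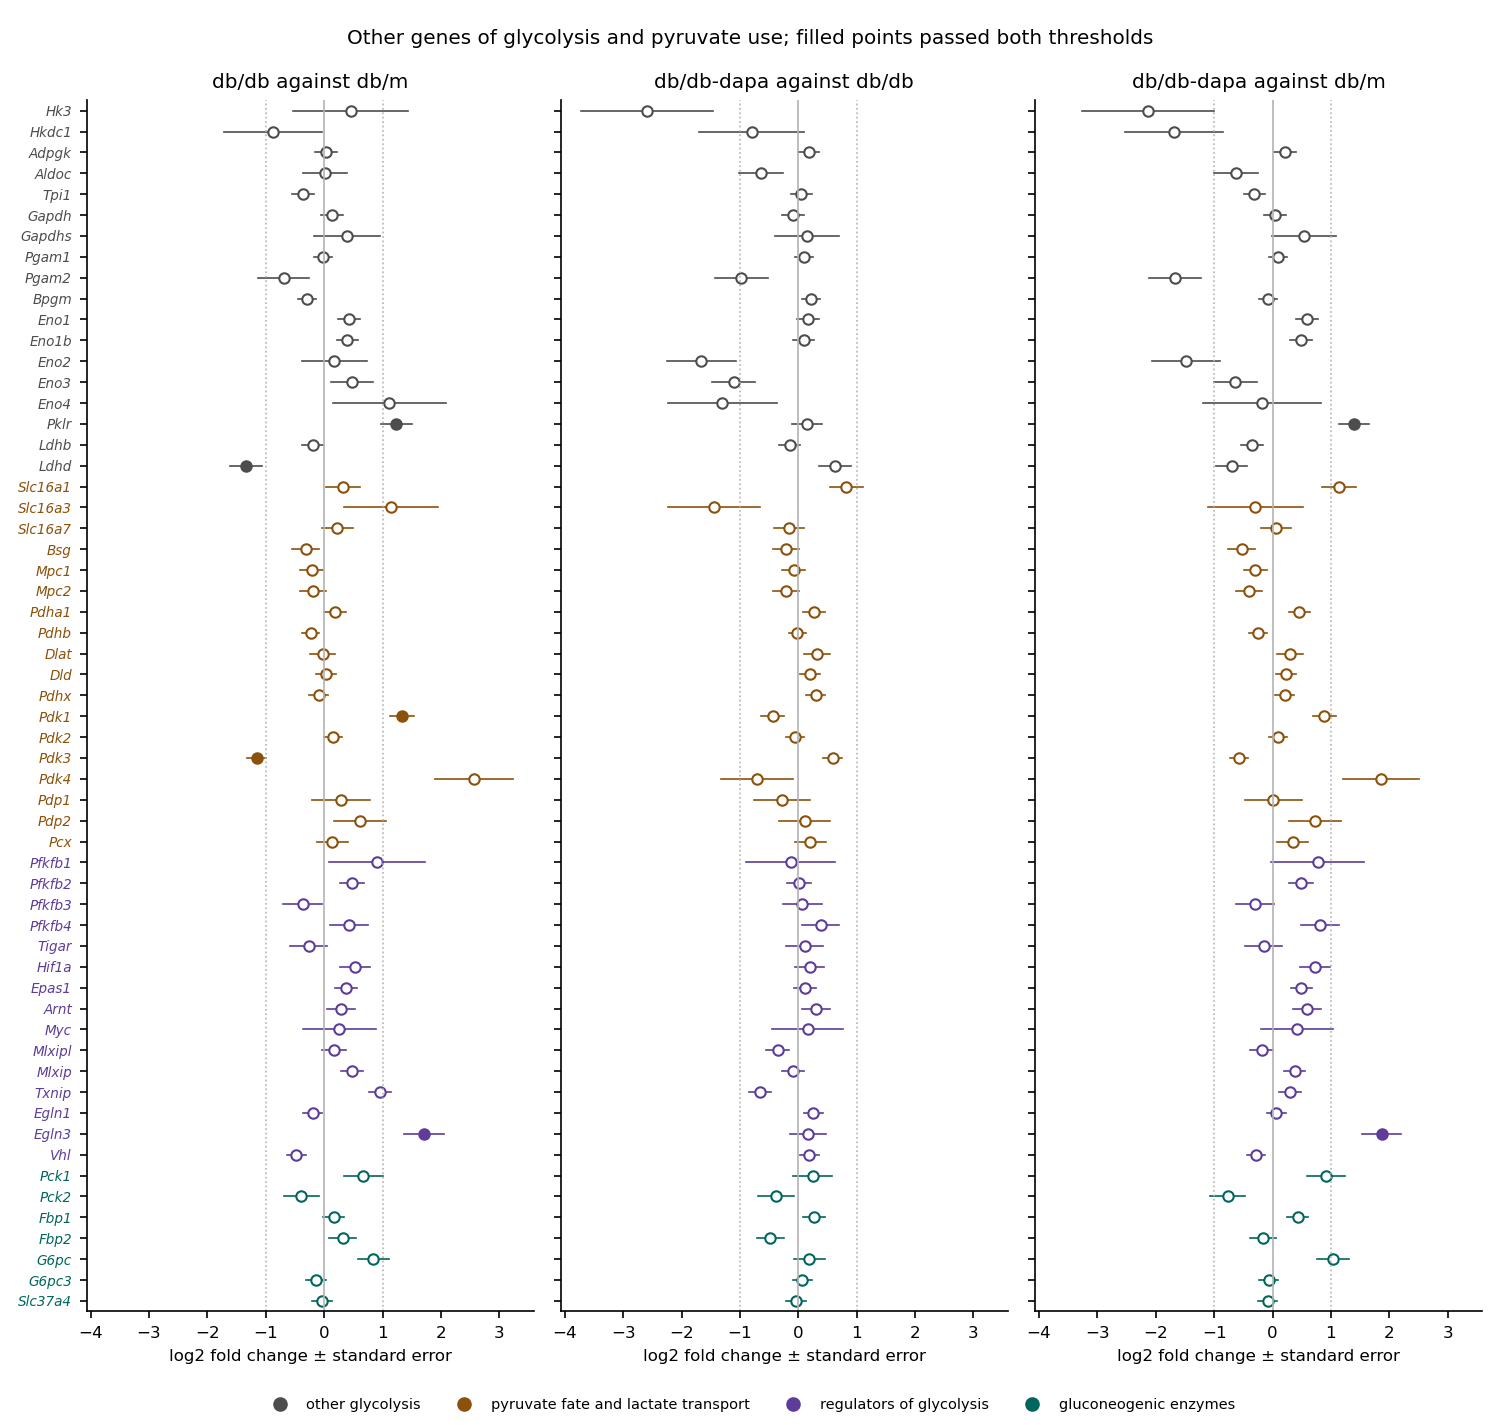
Log2 fold change with its standard error for tested genes of 4 further lists in the 3 comparisons, colored by list. Filled points passed both thresholds, which were Pklr, Ldhd, Pdk1, Pdk3 and Egln3 in *db/db* against *db/m* mice and Pklr and Egln3 in treated against control mice.

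Among 16 regulators of glycolysis, 15 were tested, and 1 was called between *db/db* and *db/m* mice and 1 between treated and control mice, both Egln3. The share called over all genes was 1.24% and 1.05% in these comparisons. Egln3 (chromosome 12, 54178981 to 54203860) encodes PHD3, a prolyl hydroxylase that marks HIF for destruction and is itself a HIF target. It was at 11.5, 5.41 and 6.44 CPM in *db/m*, 16.3, 25.8 and 33.8 CPM in *db/db* and 24.6, 36.4 and 25.5 CPM in *db/db*-dapa mice. All diabetic mice were above all controls, by 1.71 on the log2 scale (SE 0.34, adjusted p = 0.0427) without and 1.87 (SE 0.33, adjusted p = 0.0414) with dapagliflozin. The first call was lost without *db/m* mouse 2 (adjusted p = 0.150), *db/m* mouse 3 (0.148) or *db/db* mouse 2 (0.111), and the second without *db/m* mouse 2 (0.122), *db/m* mouse 3 (0.189), *db/db*-dapa mouse 2 (0.214) or *db/db*-dapa mouse 3 (0.113). For Egln3 the first call was also lost with only the 2 groups compared in the fit (adjusted p = 0.104), whereas without the 2 mice highest in collecting duct markers both passed (0.0934 and 0.0968).

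Txnip, a glucose-induced inhibitor of glucose uptake, was at 170, 121 and 157 CPM in *db/m*, 238, 313 and 319 CPM in *db/db* and 175, 166 and 209 CPM in *db/db*-dapa mice. It differed between *db/db* and *db/m* mice on adjusted p (0.0460) with a log2 fold change of 0.96 (SE 0.19), just under the limit. The adjusted p was above 0.1 without *db/m* mouse 1 (0.123), 2 (0.165) or 3 (0.119) and without *db/db* mouse 2 (0.133). Txnip passed both thresholds with scaling by the library total, without *db/db* mouse 1 (1.08, adjusted p = 0.0442) and without the 2 mice highest in collecting duct markers. In *db/db*-dapa mice every value was below every *db/db* value, at -0.66 on the log2 scale (SE 0.19, unadjusted p = 0.00542, adjusted p = 0.854). Vhl, which targets HIF for degradation, was at -0.48 (SE 0.16, adjusted p = 0.228) in *db/db* against *db/m* mice, and Pfkfb3, which makes the activator of phosphofructokinase, at -0.37 (SE 0.34, adjusted p = 0.665). Pfkfb4, of the same family, was at 0.81 in treated against control mice (SE 0.32, adjusted p = 0.237). Mlxipl, the carbohydrate-responsive factor ChREBP, was at -0.36 (SE 0.20) and Arnt, the partner of HIF, at 0.30 (SE 0.24) in treated against untreated diabetic mice, with an adjusted p of 0.854 for both.

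The HIF targets other than the 10 genes, a list of 15 that shares Pdk1, Egln3, Pfkfb3 and Pfkfb4 with the lists above, were 15 of 15 tested. By sign alone, 7 were higher and 8 lower between *db/db* and *db/m* mice, and the same held between treated and control mice. Of all genes tested, 1.24% and 1.05% were called in these comparisons. Among the 15 targets, 2 were called higher between *db/db* and *db/m* mice (Pdk1 and Egln3) and 2 between treated and control mice, with 0 called lower. The latter were Egln3 and Ndrg1, a stress-responsive gene named here after its values were seen, which was at 1903, 3242 and 1639 CPM in *db/m*, 3342, 4736 and 4069 CPM in *db/db* and 4280, 6307 and 5956 CPM in *db/db*-dapa mice. Its log2 fold change between treated and control mice was 1.29 (SE 0.28, adjusted p = 0.0762), a call lost without *db/m* mouse 1 (adjusted p = 0.308), *db/m* mouse 3 (0.263), *db/db*-dapa mouse 2 (0.364) or *db/db*-dapa mouse 3 (0.264), with limma on log2(CPM + 1) (0.131) and without the 2 mice highest in collecting duct markers (0.203). The median log2 fold change of the 15 was -0.033 between *db/db* and *db/m* mice and -0.026 between treated and control mice, beside 0.020 and -0.022 over all genes. Of 9 immediate-early genes, which dissociation of tissue can induce, 0 passed in any comparison, and their sum was 3460 to 4222 CPM in *db/m*, 2588 to 7604 in *db/db* and 3415 to 5852 in *db/db*-dapa mice.

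Gluconeogenesis runs the pathway in reverse and is a main task of the proximal tubule. Of its 7 genes, 7 were tested and 0 were called in any comparison. Over all genes the share called was 1.24% in *db/db* against *db/m*, 0% in treated against untreated diabetic and 1.05% in treated against control mice. G6pc, glucose 6-phosphatase, was at 365, 271 and 371 CPM in *db/m*, 547, 435 and 825 CPM in *db/db* and 502, 697 and 861 CPM in *db/db*-dapa mice. Both diabetic groups were above all controls, at 0.84 (SE 0.27, adjusted p = 0.205) and 1.03 (SE 0.27, adjusted p = 0.122) on the log2 scale. The second of these passed with DESeq2 (adjusted p = 0.0130), with no filter (0.0876), with only the 2 groups compared (0.0374), with variance weights (0.00449) and without *db/db*-dapa mouse 1 (0.0854). Pck1, the cytosolic phosphoenolpyruvate carboxykinase, was at 0.92 in treated against control mice (SE 0.33, adjusted p = 0.212) and 0.67 in *db/db* against *db/m* mice (SE 0.33, adjusted p = 0.394). Fbp1, fructose bisphosphatase, was at 0.27 (SE 0.18) and its isoenzyme Fbp2 at -0.48 (SE 0.23) in treated against untreated diabetic mice. Pck2, the mitochondrial carboxykinase, was at -0.77 in treated against control mice (SE 0.30, adjusted p = 0.235), and G6pc3, the ubiquitous phosphatase, at -0.14 in *db/db* against *db/m* mice (SE 0.17, adjusted p = 0.751).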

How the data were processed

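Poly(A) RNA of tdTomato-positive, DAPI-negative cells sorted from the kidney cortex of 9 mice was sequenced by the authors as stranded, single-end Illumina libraries. Per the labels' processing notes, TopHat2 2.0.13, Bowtie2 2.2.3, SAMtools 0.1.19 and Cufflinks 2.2.1 and mm10 were used. The deposited table is called FPKM. Its values were taken as estimated counts because 85.9% of those above 0 are whole, and how the authors made these, and whether strand was counted, is not given in the sources used here. Of 24421 genes 6100 were 0 in all mice.

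The estimated counts were rounded, scaled by TMM, filtered at 0.3 CPM in at least 2 of 9 mice and fitted for the 3 groups together, without covariates, with edgeR 4.0.16 (quasi-likelihood, legacy form) in R 4.3.3. The SE was derived from the F value, and 95% intervals from its degrees of freedom. DESeq2 1.42.0, limma 3.58.1 and other scalings, filters and sets of mice were alternatives. Scripts were tested on simulated data with known changes. Lengths and coordinates are those of GENCODE M21 (GRCm38).

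The 10 genes and the lists were chosen with earlier results of these data known. Named were the 10 genes, the genes of 4 further lists with an adjusted p under 0.1 or among the 2 highest or 2 lowest of a list in a comparison, isoenzymes, and the 2 genes closest to each of the 10, of which some are not reported here. Ldhd was taken out of the shares of lactate dehydrogenase after its values were seen, since it acts on D-lactate. Counts limit the precision, and 3 counts were taken as the floor, which covers counting error only.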

Additional observations from a re-analysis of the deposited data

How the results depend on the processing

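The count of glycolytic genes called was 0 in every comparison under every alternative. The count with an adjusted p under 0.1 stayed at 0 as well, except when mice were weighted by their variance (limma), where it was 1 in treated against untreated diabetic mice (Pkm) and 3 in treated against control mice (Hk1, Pfkp and Aldoa). The cause was not tested. With these weights the genes called over the whole table numbered 262, 449 and 1619 in *db/db* against *db/m*, treated against untreated diabetic and treated against control mice, in place of 194, 0 and 164. DESeq2 called 363, 13 and 507, a fit of only the 2 groups compared 114, 0 and 626, and no filter 235, 0 and 275. Scaling by the library total moved the calls between *db/db* and *db/m* mice from 85 higher and 109 lower to 141 and 93. With 1 mouse left out the numbers ran from 84 to 230, from 0 to 272 and from 14 to 254. In the first comparison *db/m* mouse 1 (84 without it), *db/m* mouse 3 (126) and *db/db* mouse 2 (112) moved them by over 1.5 times, in the second *db/db* mouse 3 (272), and in the third each of the 6 mice, from 14 without treated mouse 2 to 254 without treated mouse 1.

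Log2 fold changes near 0 changed sign. With the weights, in *db/db* against *db/m* mice, Hk1 was at 0.15, Hk2 at -0.048, Pfkm at 0.032 and Pfkp at 0.23. In treated against untreated diabetic mice Pfkl was then at 0.019 and Pfkm at -0.0071, and in treated against control mice Pfkm was at 0.024 and Pgk1 at 0.0079. Scaling by the library total alone, which moved the median of all genes to 0.13 in *db/db* against *db/m* mice, gave Pfkm 0.010 and Pfkp 0.071 there, and Pfkm 0.034 and Pgk1 0.0036 in treated against control mice. limma on log2(CPM + 1) gave Pfkp 0.0081 in *db/db* against *db/m* mice. Without the 2 mice highest in collecting duct markers, added after the data were seen, Hk1 was at 0.084, Hk2 at -0.64, Pfkm at 0.10 and Pfkp at 0.24 in *db/db* against *db/m* mice, Egln3 at -0.058 in treated against untreated diabetic mice, and Pfkm at 0.16 and Pgk1 at 0.019 in treated against control mice.

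With 1 mouse left out in turn, *db/db* against *db/m* values ran from -0.48 to 0.26 for Hk1, from -0.27 to 0.96 for Hk2, from -0.22 to 0.074 for Pfkm, from -0.26 to 0.29 for Pfkp and from -0.31 to 0.50 for Pkm. In treated against untreated diabetic mice they ran from -0.045 to 0.054 for Gpi1, from -0.097 to 0.075 for Pfkl, from -1.16 to 0.81 for Pdk4 and from -0.057 to 0.45 for Egln3. In treated against control mice they ran from -0.13 to 0.16 for Pfkm and from -0.10 to 0.016 for Pgk1. Of the 45 comparisons of shares, 27 were recomputed with other gene lengths and with 1 mouse left out in turn, and these kept their direction or moved by less than 1 SD.

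With the replicate number as a block in the fit, 0 of the 10 genes were called and 185, 0 and 167 of all genes were. The correlations of the deviations from the group means ranged from -0.32 to 0.56 for samples of the same number. For samples of different numbers they ranged from -0.61 to 0.36. The highest were those of *db/db* and *db/db*-dapa mice 3 (0.56) and mice 1 (0.40). Whether samples of the same number share more than the number was not tested, and the labels name no pairing. Pairing by number is not used elsewhere. Depth limited Hk2, at 1 to 18 counts a mouse.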
